A study of Mus musculus with 29 samples.

Results

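The genes described here are the numbered zinc finger protein genes of the mouse, those whose symbol is Zfp followed by a number. In the table of poly(A) sites, which holds 15954 genes with reads, 347 symbols matched that pattern once Zfp36 was set aside. The 245 with at least 260 reads over the 26 3' end libraries were kept. These 245 genes held 841475 reads, 0.515% of all reads in genes. The lowest totals kept were 269 reads for Zfp964, 264 for Zfp763 and 262 for Zfp955a, and the highest totals not kept were 259 for Zfp160, 238 for Zfp382 and 233 for Zfp408. Of the 102 genes below the minimum, 5 had no read. The group is one of name and not of a single protein family. Zfp36l1 and Zfp36l2, relatives of Zfp36 whose proteins bind AU-rich RNA, matched the pattern but had 143 and 102 reads and were not kept.

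All libraries came from C2C12, an established mouse myoblast line that fuses into muscle fibres when serum is reduced. Cells had been separated into a membrane and a cytosol fraction. In the puromycin experiment, proliferating cells in medium with fetal bovine serum were left untreated or given puromycin at 100 µg/ml for 0, 30 or 60 min, with 1 membrane and 1 cytosol library each, 8 in all. In the gradient experiment, differentiating and proliferating cells gave polysome and monosome parts of both fractions, 16 libraries in 8 groups of 2 replicates. Medium with 2% horse serum was listed for the differentiating polysome libraries, while the differentiating monosome libraries were listed with fetal bovine serum medium. A single membrane and a single cytosol library of whole fractions, and 3 RNA-seq libraries, completed the series. No label ties the replicates to separate cultures. Every p-value here therefore measures the spread among these samples alone, and that spread may be technical.

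Most proteins of this name carry tandem C2H2 zinc fingers, each of which reads a few bases of DNA. Many also carry a KRAB domain, which recruits Trim28 (KAP1) and through it the histone H3 lysine 9 methyltransferase Setdb1, and they are best known as silencers of retroelements that arose in clustered gene duplications. Puromycin ends translation by releasing nascent chains from ribosomes, and the series asked how mRNAs stay at the endoplasmic reticulum without it.

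Libraries held from 2964852 to 11631401 reads in genes. The genes described here had a median total of 1425 reads, against 3264 for the 10054 genes of the series with at least 260 reads, and between 16 and 136 reads per gene and library at the median. Counting error is therefore larger for them than for most genes. All 5 myoblast markers had reads in every library, summing to between 258 and 2139 CPM (reads of a gene scaled to a fixed library total of reads in genes, so that values are relative to all other genes), against 0 to 1.83 CPM for 4 macrophage and leukocyte markers, 0 to 0.344 CPM for 3 endothelial markers and 5.17 to 39.4 CPM for 3 epithelial markers, of which 1 or 2 had reads in each library. The pan-leukocyte gene Ptprc did not exceed 0.187 CPM. The endothelial and epithelial sums each cover the 2 of 3 listed symbols that were among the genes with reads. Of 7 listed symbols for differentiating muscle, 6 were among those genes, and all 6 had reads in every differentiating library. Their sum lay between 6567 and 9121 CPM in differentiating replicates 1 and between 1502 and 1928 CPM in differentiating replicates 2, and at 268 CPM or less in proliferating libraries. In such bulk samples, fewer cells of a type and less RNA per cell cannot be told apart.

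The 245 genes lay on 19 chromosomes, with 55 on chromosome 7, 33 on chromosome 17, 20 on chromosome 13 and 18 on chromosome 8. At least 1 other of the 347 matching symbols, kept or not, lay within 100 kb of 131 of them, and 114 stood alone. Members of such clusters can share near-identical sequence, and how reads with several matches were counted is not given in the sources used here, so their separate values are less certain. A median of 8 poly(A) sites per gene, counted on either strand, had reads. The most used site took a median of 78.3% of a gene's reads. In 78 genes that site took over 90% of reads, and in 48 genes under 50%. Reads were present in all 26 libraries for 233 genes.

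The mean over all libraries had a median of 8.43 CPM across the 245 genes. Zfp68 was by far the highest, at 522 CPM. It was followed by Zfp385a at 156 CPM, Zfp593 at 138 CPM, Zfp319 at 129 CPM, Zfp444 at 125 CPM and Zfp64 at 112 CPM. Zfp385a binds RNA and partners p53, human ZNF593 takes part in the maturation of the large ribosomal subunit, and Zfp64 acts in Notch signalling of mesenchymal cells. The next were Zfp787 at 110 CPM, Zfp219 at 102 CPM, Zfp207 at 96.5 CPM and Zfp655 at 93.6 CPM. Zfp219 is a partner of Sox9 in cartilage, Zfp207 (BuGZ) binds the mitotic spindle and the kinetochore, and human ZNF655 interacts with the signalling protein VAV1. These values are per library and not per length, as a 3' end read is made once per transcript.

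In the membrane fraction, mRNAs of the zinc finger genes became a larger share of the library after puromycin. The median gene of the group stood at 7.48 CPM in untreated cells, 7.10 CPM at 0 min, 11.3 CPM at 30 min and 15.4 CPM at 60 min in membrane libraries. In cytosol libraries it stood at 5.63, 5.10, 5.46 and 7.89 CPM at the same times. Over all genes with at least 260 reads the median was 18.7, 17.0, 19.1 and 20.7 CPM in membrane libraries and 13.1, 11.4, 14.5 and 15.6 CPM in cytosol libraries. The summed share of the group was 0.477%, 0.462%, 0.713% and 0.871% of membrane reads and 0.461%, 0.438%, 0.442% and 0.543% of cytosol reads. Membrane libraries at 30 and 60 min were thus above both unexposed ones, and in cytosol the 60 min library alone was above the rest.

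**Figure D1:**
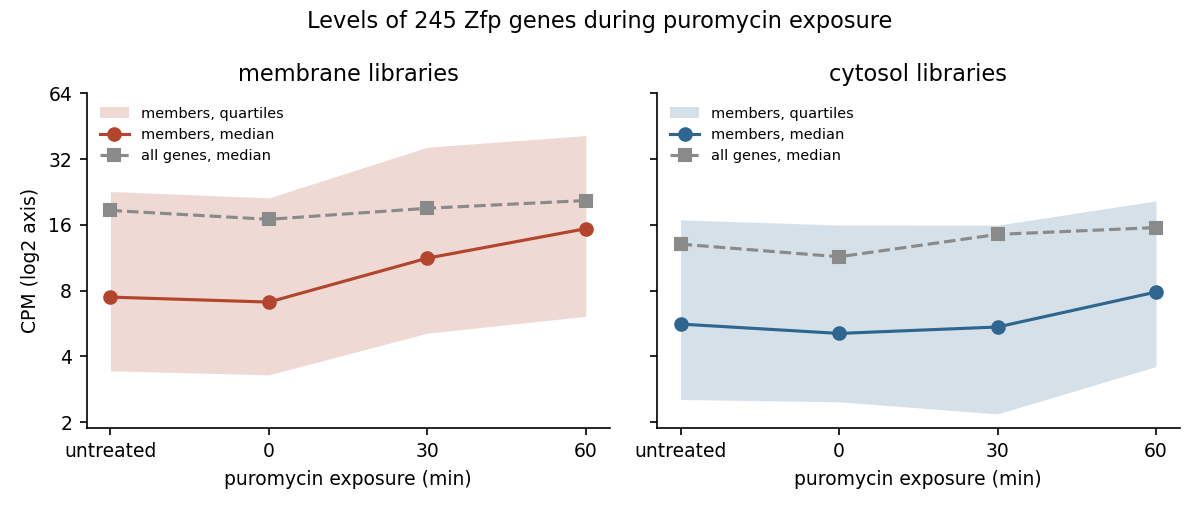
Median CPM of the 245 zinc finger genes (filled points, shading from the lower to the upper quartile) and of all genes with at least 260 reads (grey squares) by puromycin exposure, on a log2 axis, with 1 library per point. In membrane libraries the median of the group was 15.4 CPM at 60 min and 7.48 CPM in untreated cells, and in cytosol libraries 7.89 and 5.63 CPM.

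Gene by gene, 194 of 242 tested genes of the group were higher in both exposed membrane libraries (30 and 60 min) than in both unexposed ones (untreated and 0 min), or 80.2%, against 39.2% of all tested genes. None of the 242 was lower in both, against 18.3% of all genes. In cytosol, 85 were higher and 43 lower, or 35.1% and 17.8%, against 31.7% and 28.4% of all genes. In both fractions at once 74 were higher, 30.6% against 7.53% of all genes. Scaling by TMM or by DESeq2 size factors in place of plain CPM left 184 or 166 higher and 2 or 3 lower in the membrane fraction. Of all genes, 23.2% or 30.1% were then lower, and the share higher is not given here. Differences from the mean of the unexposed libraries were taken on the log2(CPM + 0.5) scale. In the membrane fraction their median was 0.61 at 30 min and 0.88 at 60 min. Of 242 genes, 225 and 238 were above 0, or 93.0% and 98.3%. All tested genes had medians of 0.141 and 0.223 there, with 61.5% and 66.3% above 0. In cytosol the group's median was 0.02 and 0.39, with 128 and 171 above 0, or 52.9% and 70.7%. All tested genes had medians of -0.037 and 0.055 there, with 47.7% and 53.1% above 0.

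A slope on minutes of exposure, fitted to all 8 libraries with a term for the fraction, rose for 9 genes of the group by edgeR's quasi-likelihood test (Benjamini-Hochberg adjusted p under 0.05) and fell for 0. The fit treated the membrane and cytosol libraries of an exposure as separate, although exposure itself varied over only 4 units. Among all 10465 genes tested, 0.506% were called higher and 0.00956% lower. The slope was above 0 in 210 of the 242, or 86.8%, against 56.8% of all genes, and 94 had an unadjusted p under 0.05 with a positive slope, against 0 with a negative one (6.23% and 2.35% of all genes). Per 30 min the median slope was 0.31 on the log2 scale, with quartiles of 0.10 and 0.52, against 0.04 over all genes. By DESeq2, 23 genes were called higher, among them all 9, and 0 lower, against 0.956% and 0.201% of all genes.

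**Figure D2:**
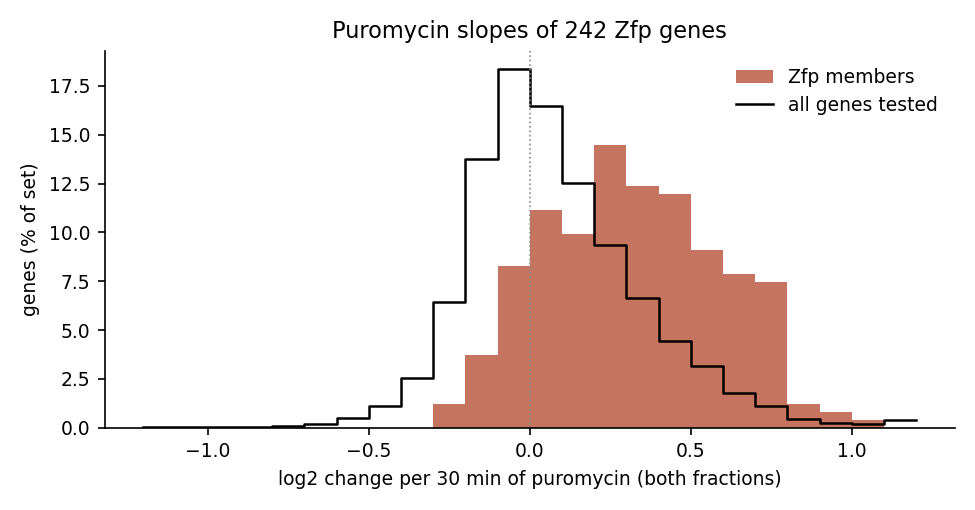
Share of the 242 tested zinc finger genes (bars) and of all 10465 tested genes (line) by log2 change per 30 min of puromycin, over both fractions. The median is 0.31 for the zinc finger genes and 0.04 for all genes.

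The 9 genes called were Zfp108, Zfp157, Zfp952, Zfp715, Zfp869, Zfp748, Zfp119a, Zfp689 and Zfp947, on chromosomes 5, 7, 8, 13 and 17. Zfp869 had the highest level of them, with 73.7, 75.5, 165 and 237 CPM in membrane libraries of untreated, 0, 30 and 60 min cells and 50.8, 47.6, 71.9 and 126 CPM in cytosol libraries. Its slope was 0.72 (SE 0.091, edgeR adjusted p = 0.0197). Both exposed libraries were above both unexposed ones in each fraction.

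Zfp715 had 29.3, 22.9, 45.4 and 81.4 CPM in membrane libraries and 10.7, 11.7, 19.5 and 33.6 CPM in cytosol libraries, a slope of 0.76 (SE 0.091, edgeR adjusted p = 0.0194). Zfp157 had 18.7, 16, 40.8 and 52.4 CPM in membrane and 15.1, 12.7, 27.3 and 43.9 CPM in cytosol libraries, a slope of 0.80 (SE 0.111, edgeR adjusted p = 0.022). Zfp748 had 24.9, 26.2, 49.5 and 69.9 CPM in membrane and 15.1, 13.1, 24.7 and 41.4 CPM in cytosol libraries, a slope of 0.72 (SE 0.093, edgeR adjusted p = 0.0197). In each of these 3 genes the 60 min library was the highest and the 30 min library the second highest in both fractions.

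Zfp952 had 9.37, 9.0, 17.8 and 32 CPM in membrane and 6.17, 7.31, 11.1 and 19.5 CPM in cytosol libraries, a slope of 0.79 (SE 0.103, edgeR adjusted p = 0.0199). Zfp108 had the steepest slope, 1.02 (SE 0.165, edgeR adjusted p = 0.0451), but few reads. It had 30, 18, 40 and 122 reads in membrane and 12, 28, 75 and 69 reads in cytosol libraries, or 2.58, 2.28, 5.25 and 13.8 CPM and 2.18, 3.86, 7.44 and 9.55 CPM. The remaining 3 had slopes of 0.68 (Zfp119a), 0.62 (Zfp689) and 0.62 (Zfp947), with edgeR adjusted p between 0.0429 and 0.0451. Zfp119a had 15.5, 16.1, 30.6 and 38.5 CPM in membrane and 14.0, 18.2, 27.3 and 47.5 CPM in cytosol libraries. For the 9 genes the slope was between 0.51 and 0.82 in cytosol libraries alone and between 0.52 and 1.13 in membrane libraries alone, so that it was positive in each fraction for each of them.

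**Figure D3:**
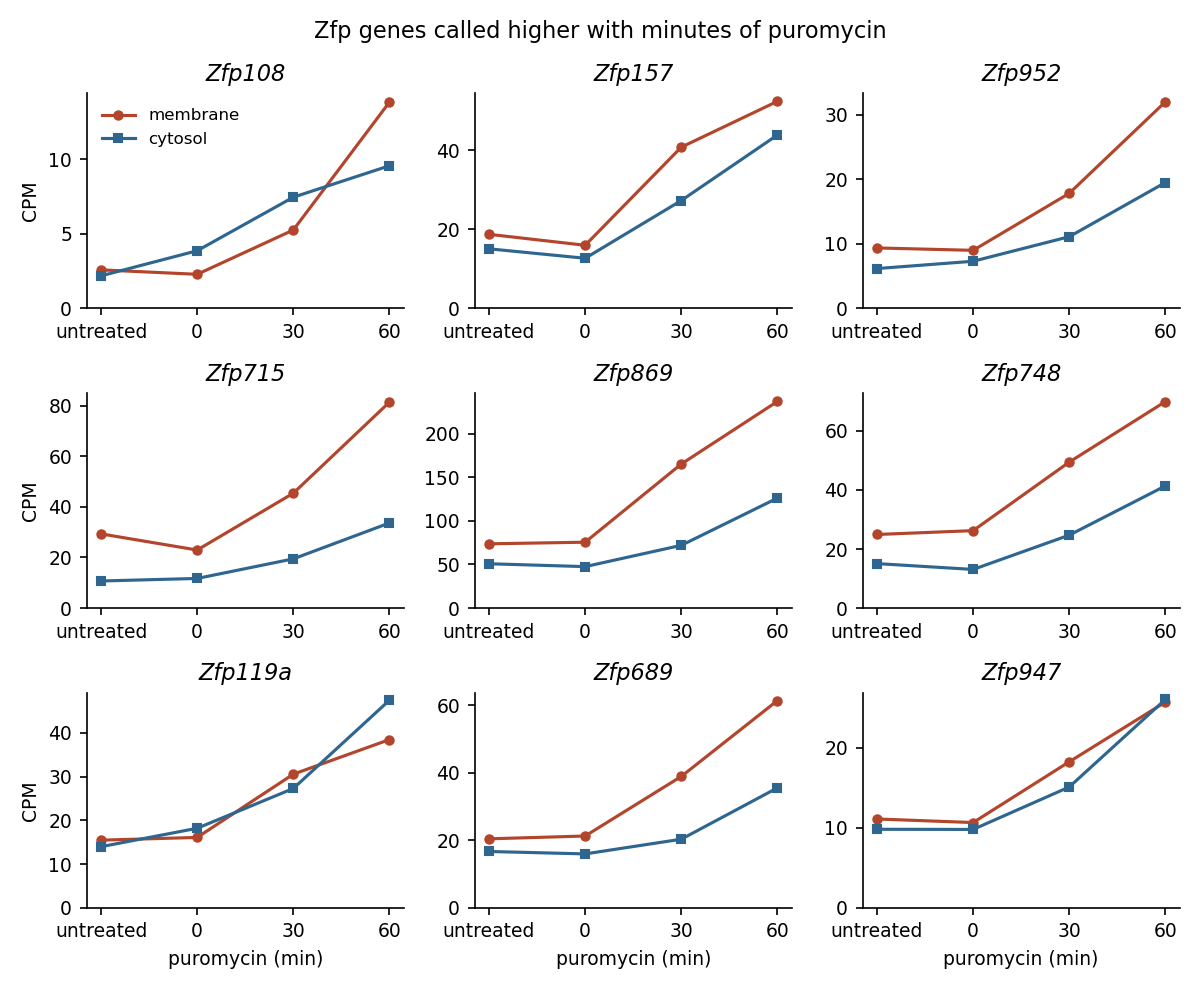
CPM of the 9 zinc finger genes called higher with minutes of puromycin, 1 library per point, in membrane and cytosol libraries. In Zfp869 the 60 min libraries reached 237 CPM in the membrane and 126 CPM in the cytosol fraction, against 73.7 and 50.8 CPM in untreated cells.

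These calls rest on 4 exposures with 1 library per fraction. With any 1 exposure left out no gene of the group was called, while all 9 slopes stayed positive and the group's median stayed between 0.30 and 0.36. With both fractions summed per exposure, 6 of these 9 kept their call, and all 9 slopes lay between 0.62 and 1.03. The group's median was then 0.335, against 0.002 over all genes. Exposed against unexposed as 2 classes gave 0 calls, cytosol libraries alone 0, membrane libraries alone 17 (7.05%, against 0.943% of all genes) and DESeq2 size factors 5. RNA kept in the nucleus also moved in the membrane libraries: Neat1 had 125, 174, 273 and 570 CPM in untreated, 0, 30 and 60 min cells, whereas Malat1 had 2.32, 2.54, 2.62 and 2.38 CPM. Both together stayed between 8.14 and 18.2 CPM in cytosol libraries. The part of nuclear RNA in the rise of the zinc finger genes was not tested.

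Whether the rise was larger in the membrane than in the cytosol fraction depended on how exposure was coded. With minutes as the measure, the interaction was above 0 in 193 of 242 genes of the group (median 0.26, against 0.11 over all genes), 24 had an unadjusted p under 0.05 with a positive value and 0 with a negative one (8.64% and 16.3% of all genes), 0 passed edgeR's quasi-likelihood test after adjustment, and DESeq2 called 1. The same test called 0.0% of all genes in each direction. With exposed against unexposed as 2 classes, 49 were called higher and 1 lower in the membrane fraction. Those are 20.2% and 0.413% of the group, against 18.0% and 19.9% of all genes. Without the 30 min libraries 27 were called higher (11.2% of the group, against 7.85% of all genes), and without the 60 min libraries 30 (12.3%, against 7.69%). The share called higher was thus near that of all genes with 2 classes, and somewhat above it without the 30 or the 60 min libraries. With 2 classes the share called lower was well below that of all genes.

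Of the 10 genes of the group with the highest mean level, none was called. Zfp319 had 166, 140, 275 and 359 CPM in membrane libraries and 81.0, 65.2, 70.2 and 138 CPM in cytosol libraries (slope 0.48, SE 0.106, edgeR adjusted p = 0.144). Zfp655 had 51.9, 41.6, 124 and 184 CPM in membrane and 58.1, 55.8, 57.9 and 89.7 CPM in cytosol libraries (slope 0.62, SE 0.155, edgeR adjusted p = 0.207). Zfp787 had 72.9, 108, 195 and 283 CPM in membrane and 139, 142, 117 and 172 CPM in cytosol libraries (slope 0.43, edgeR adjusted p = 0.51). All 3 were above both unexposed levels in both exposed membrane libraries, while in cytosol only the 60 min library of Zfp319, Zfp655 and Zfp787 was above both.

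Zfp68 had 334, 321, 390 and 454 CPM in membrane and 382, 484, 545 and 598 CPM in cytosol libraries (slope 0.20, edgeR adjusted p = 0.583). Zfp385a had 148, 212, 240 and 207 CPM in membrane and 200, 244, 226 and 171 CPM in cytosol libraries, with a slope of -0.06. For Zfp593, Zfp444, Zfp64, Zfp219 and Zfp207 slopes lay between -0.09 and 0.16. Of these, Zfp64, Zfp207, Zfp219, Zfp385a and Zfp593 changed sign under at least 1 other setting.

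Genes with another matching symbol, kept or not, within 100 kb had a median slope of 0.41, with 117 of 130 tested above 0 and 6 called. Genes that stood alone had a median of 0.23, with 93 of 112 above 0 and 3 called. By chromosome the median slope ran from 0.12 (chromosome 15, 6 of 9 above 0) to 0.52. On chromosome 13 all 20 genes had a slope above 0 (median 0.52), on chromosome 7 it was 51 of 55 (median 0.42), on chromosome 17 it was 27 of 33 (median 0.33) and on chromosome 8 it was 17 of 18 (median 0.29). On chromosome 4 it was 5 of 8 (median 0.18). By mean level, the low, middle and high tercile of the group had median slopes of 0.32, 0.41 and 0.19. Related lists with other names had positive medians too. Of 31 tested Zbtb genes, whose BTB domain pairs with zinc fingers, 24 had a slope above 0 (median 0.22) and 0 were called. Of 12 tested Zscan and Zkscan genes, which carry a SCAN domain, 11 were above 0 (median 0.39) and 0 were called.

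The corepressor genes through which KRAB proteins act stayed near 0. Of 24 tested genes on that list 12 had a positive slope, the median was -0.01 and 0 were called. Trim28 had 421, 339, 370 and 354 CPM in membrane and 274, 186, 215 and 220 CPM in cytosol libraries (slope -0.08, edgeR adjusted p = 0.83). Setdb1 had 20.9, 13.9, 19.9 and 26.8 CPM in membrane and 7.08, 5.38, 7.05 and 11.3 CPM in cytosol libraries (slope 0.31, edgeR adjusted p = 0.521). In Trim28 all later libraries were below the untreated one in both fractions.

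A promoter window from 250 bases before to 50 after the gene start was listed by RefSeq (GRCm38.p6) for 201 of the 245 genes, and for all 9 genes called. Both strands were searched for 5 motifs, and a motif counted if any listed window of a gene held it. The GC box GGGCGG, bound by Sp and KLF factors, occurred in 52.2% of these 201 genes, against 71.5% of 7583 tested genes with a window. The ETS core CCGGAAG occurred in 19.9% against 21.0%, TGACGTC (ATF and CREB) in 6.97% against 6.88%, ACTACAA (part of the ZNF143 element) in 6.97% against 5.26% and TATAAAA in 2.49% against 2.98%. With the highest value over each gene's windows, median GC content was 57.7% against 62.3%, and the median number of CpG dinucleotides 17 against 23. For the Sp and KLF, ETS and ZNF143 motifs, only Zfp108, Zfp715 and Zfp947 among the 9 genes called held a match. The remaining motifs were not listed gene by gene. The matches are shown because these genes moved together; capitals mark the motif, each line reads 5′ to 3′ on the strand where the motif was found, and positions count from the gene start along the gene. Zfp947 also held CCGGAAG, at position 26.
Zfp108, chromosome 7, ACTACAA on the strand opposite to the gene, position -63: gctccagaACTACAAttcccagaatgcctc
Zfp715, chromosome 7, GGGCGG on the opposite strand, position -177: ttccatgtGGGCGGgcagctaaatgcaacg
Zfp947, chromosome 17, GGGCGG on the strand of the gene, position -46: ggtttattGGGCGGgtctaggagagcagct

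The fractions differed for the group in the puromycin libraries. By edgeR's quasi-likelihood test, 48 of 242 genes were higher in membrane than in cytosol and 5 were lower, or 19.8% and 2.07%, against 11.2% and 13.5% of all genes. The median difference was 0.44 on the log2 scale, against 0.13 over all genes. Zfp329 had 7.82 to 12.2 CPM in the 4 membrane libraries (median 8.12) and 1.19 to 2.08 CPM in the 4 cytosol libraries (median 1.64), a difference of 2.28 (SE 0.224, edgeR adjusted p = 0.0124). Zfp646 had 7.73 to 20.5 CPM in membrane and 0.893 to 5.26 CPM in cytosol libraries (2.24, SE 0.406, edgeR adjusted p = 0.0208). Zfp629 had 2.92 to 9.50 CPM in membrane and 0 to 1.27 CPM in cytosol libraries (2.65, SE 0.55, edgeR adjusted p = 0.027). Zfp407, which in mouse adipocytes acts on glucose transport genes, differed by 2.39. The ranges of the fractions did not overlap in any of these 4 genes.

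Among the genes lower in the membrane fraction, Zfp593 had 69.1 to 91.0 CPM in membrane and 136 to 197 CPM in cytosol libraries (-1.16, SE 0.163, edgeR adjusted p = 0.0159). Zfp706, which in mouse embryonic stem cells represses Klf4, had 41.7 to 54.0 CPM in membrane and 71.5 to 138 CPM in cytosol libraries (-1.16, SE 0.222, edgeR adjusted p = 0.0229). Zfp771 had 70.1 to 103 CPM in membrane and 125 to 129 CPM in cytosol libraries (-0.78, edgeR adjusted p = 0.0218). In these 3 genes the fractions did not overlap, whereas in Zfp930, lower by 0.64 (edgeR adjusted p = 0.0457), they did. No gene of the group was called in either direction with any 1 exposure left out, which leaves 3 libraries per fraction, and the group's median then stayed between 0.35 and 0.51.

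In the gradient libraries 72 of 245 genes of the group were higher in the membrane than in the cytosol fraction and 24 were lower by edgeR's quasi-likelihood test, or 29.4% and 9.8%, against 26.7% and 16.4% of all genes. The share higher was thus near that of all genes. The group's median was 0.34 against 0.12 over all genes. DESeq2 size factors moved it to 0.19 and the median of all genes to -0.02, with 52 genes of the group higher and 31 lower. Without proliferating membrane monosome replicate 1, 44 were higher, and without the filter on low counts 40. Shares of all genes called in these other settings are not given here. Of the 48 genes higher in the puromycin libraries, 40 were also higher here, which is 83.3% of the 48 and 55.6% of the 72. All 5 that were lower there were among the 24 lower here (20.8%), and 198 of 242 genes had the same sign in both sets of libraries. This overlap was not counted over all genes, so it is not shown to be particular to the group.

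Zfp862, which RefSeq lists as the pseudogene Zfp862-ps, had 16.3 to 59.9 CPM in the 8 membrane libraries (median 34.6) and 2.35 to 12.8 CPM in the 8 cytosol libraries (median 7.22). It rose by 2.06 (SE 0.209, edgeR adjusted p = 3.77e-06), and the fractions did not overlap. Zfp41 had 3.11 to 39.6 CPM in membrane (median 21.9) and 0.261 to 13.4 CPM in cytosol libraries (median 6.55), a rise of 1.76 (SE 0.351, edgeR adjusted p = 0.00114) with overlapping ranges. Zfp799 and Zfp316 rose by 1.69 and 1.58, also with overlap. Zfp593 fell by 1.02 (SE 0.179, edgeR adjusted p = 0.000413), with 73.7 to 130 CPM in membrane (median 101) and 103 to 274 CPM in cytosol libraries (median 164). Zfp119a fell by 0.94 and Zfp362 by 0.91, with edgeR adjusted p of 0.000768 and 0.000998. Zfp605, which fell by 0.98 (edgeR adjusted p = 0.0372), lost its call in 11 of 16 fits that left out 1 library.

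On polysomes against monosomes in the cytosol, 37 genes of the group were higher and 38 lower by edgeR's quasi-likelihood test, or 15.1% and 15.5%, against 21.3% and 20.1% of all genes. The median was -0.22 against 0.03 over all genes, and with DESeq2 size factors -0.35 against -0.10, with 29 higher and 48 lower. Without proliferating cytosol polysome replicate 2, 25 were lower. For these 2 settings the shares of all genes called are not given here. Zfp119a had 21.9 and 20.7 CPM in differentiating and 20.8 and 13.8 CPM in proliferating polysome libraries, against 64.7 and 59.0 CPM in differentiating and 91.7 and 71.8 CPM in proliferating monosome libraries. It fell by 2.07 (SE 0.259, edgeR adjusted p = 4.61e-05) with no overlap.

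Zfp788 had 8.23, 13.1, 9.63 and 12.2 CPM in the 4 cytosol polysome libraries and 27.4, 28.7, 41.7 and 40.4 CPM in the 4 monosome libraries (-1.85, SE 0.234, edgeR adjusted p = 5.02e-05). Zfp933 had 4.29, 3.74, 2.41 and 2.79 CPM in polysome and 16.7, 5.40, 15.6 and 18.6 CPM in monosome libraries (-2.27, SE 0.376, edgeR adjusted p = 0.000366). In both, every polysome library was below every monosome library, as it was for Zfp607, which fell by 1.78. Among the largest rises, Zfp94 had 5.32, 3.23, 6.19 and 5.91 CPM in polysome and 0, 0.337, 4.43 and 1.99 CPM in monosome libraries (2.63, SE 0.604, edgeR adjusted p = 0.00354). Zfp946, Zfp446 and Zfp940 were at or below 3.12 CPM in every one of these libraries, with differences of 3.76, 3.15 and 2.43 that rest on few reads.

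In the membrane fraction 4 genes of the group were higher on polysomes and 30 lower by edgeR's quasi-likelihood test. That is 1.63% and 12.2%, against 8.67% and 4.4% of all genes. The median was -0.33 while that of all genes was 0.22, and with DESeq2 size factors the medians were -0.49 and 0.06. Of the 245 genes, 163 had a negative difference, or 66.5%, against 37.0% of all genes. DESeq2 called 4 higher and 58 lower, or 1.63% and 23.7%, against 8.27% and 8.03% of all genes. Leaving out 1 library gave between 15 and 29 lower, with 15 without proliferating membrane polysome replicate 2 and 16 to 19 without any other membrane library except proliferating membrane monosome replicate 1. It gave 0 to 4 higher, with 0 without proliferating membrane monosome replicate 1 and 2 without proliferating membrane polysome replicate 1 or differentiating membrane monosome replicate 2. Shares of all genes called in the fits that left out 1 library are not given here.

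Zfp329 had 5.03 and 6.17 CPM in differentiating and 5.71 and 4.62 CPM in proliferating membrane polysome libraries, against 9.81 and 11.1 CPM in differentiating and 40.6 and 37.4 CPM in proliferating monosome libraries. It fell by 1.74 (SE 0.325, edgeR adjusted p = 0.00544). Zfp933 fell by 1.77 (SE 0.379, edgeR adjusted p = 0.00977), with 1.76 to 2.55 CPM in polysome and 5.31 to 11.7 CPM in monosome libraries. Neither gene's ranges overlapped, and both calls held in all fits that left out 1 library. Zfp770 fell by 1.81 (edgeR adjusted p = 0.0135), a call lost without proliferating membrane polysome replicate 2 (edgeR adjusted p = 0.0602), and Zfp54 by 1.58, a call lost in 8 such fits. Of the 4 that rose, Zfp862 had 45.6 and 59.9 CPM in differentiating and 49.6 and 38.8 CPM in proliferating polysome libraries, against 16.3 and 18.6 CPM in differentiating and 30.4 and 25.2 CPM in proliferating monosome libraries. It rose by 1.30 (SE 0.277, edgeR adjusted p = 0.00966). Zfp507, Zfp428 and Zfp821 rose by 1.22, 1.13 and 1.02. The calls of Zfp862 and Zfp507 were lost without proliferating membrane monosome replicate 1 (edgeR adjusted p = 0.0853 and 0.0658), and those of Zfp428 and Zfp821 in 6 and 5 such fits.

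The group's median level was 7.91 ± 1.51 CPM in proliferating membrane polysome libraries and 15.1 ± 2.66 CPM in proliferating membrane monosome libraries (SD, n = 2 each). In differentiating cells it was 8.80 ± 1.67 CPM on membrane polysomes and 9.07 ± 0.308 CPM on membrane monosomes. In cytosol libraries it was between 5.05 and 6.66 CPM. A difference between polysomes and monosomes in median level was thus larger than the spread between replicates in proliferating membrane libraries and smaller in differentiating ones. Tested gene by gene, the interaction of state and gradient part was called for 0 genes of the group by edgeR's quasi-likelihood test and for 0.0% of all genes, with 12 genes of the group higher and 0 lower at an unadjusted p under 0.05 (1.49% and 1.4% of all genes). DESeq2 was not run for this interaction. The nuclear RNAs Malat1 and Neat1 together had 50.3 and 19.3 CPM on proliferating membrane polysomes against 658 and 313 CPM on proliferating membrane monosomes. In differentiating cells they had 7.75 and 23.3 CPM against 29.2 and 163 CPM. Neat1 alone had 624 and 291 CPM on proliferating membrane monosomes, so these sums are mostly 1 gene. The part of nuclear RNA in these differences was not tested.

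**Figure D4:**
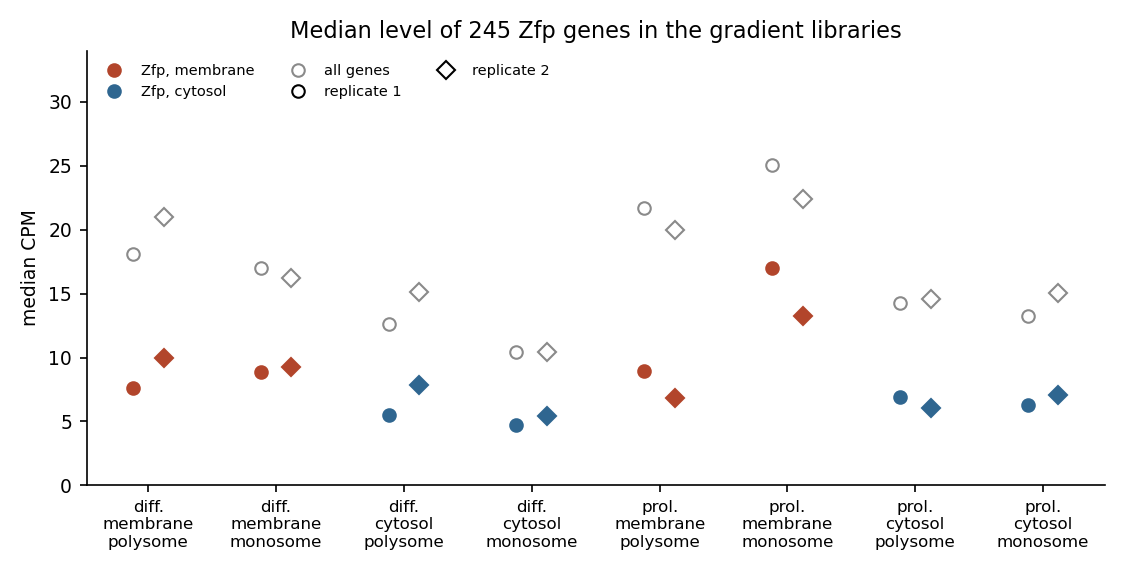
Median CPM of the 245 zinc finger genes in each gradient library (filled points) with the median of all genes with at least 260 reads (open points), by state, fraction and gradient part, 2 libraries per group. The 2 proliferating membrane monosome libraries, at 17.0 and 13.3 CPM, were above all other gradient libraries.

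Across the group, a steeper slope on puromycin went with a lower level on membrane polysomes than monosomes (Spearman rho -0.38 over 242 genes, against 0.04 over 10281 genes). For cytosol polysomes against monosomes rho was -0.20 in the group and -0.19 over all genes, and for the gradient membrane against cytosol difference 0.14 and 0.44. These are descriptions across genes, which are not independent replicates, share libraries and differ in depth.

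By edgeR's quasi-likelihood test 21 of 245 genes were higher in differentiating than in proliferating cells and 31 lower, or 8.57% and 12.7%, against 16.3% and 19.2% of all genes. The median was -0.15 against -0.09 over all genes. With DESeq2 size factors 25 were higher and 20 lower. Shares of all genes called are not given here for that setting or for the fits below. Leaving out 1 library gave between 16 and 32 lower, with 16 without proliferating membrane monosome replicate 2, 18 without proliferating membrane polysome replicate 2, 19 without proliferating cytosol polysome replicate 2, and 20 without either replicate 1 of the proliferating membrane libraries. The muscle markers differed between differentiating replicates 1 and 2, as given above, and their part in these differences was not tested.

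Zfp667, known from rat heart as a gene induced by ischaemic preconditioning, had 7.37 to 15.9 CPM in differentiating libraries (median 8.55) and 4.13 to 6.85 CPM in proliferating libraries (median 5.19). It rose by 1.07 (SE 0.206, edgeR adjusted p = 0.00146) with no overlap. Zfp651 had 28.3 to 74.9 CPM in differentiating (median 52.6) and 8.85 to 44.9 CPM in proliferating libraries (median 20.8), a rise of 1.36 (SE 0.212, edgeR adjusted p = 0.000309). Zfp579 had 31.1 to 122 CPM in differentiating (median 59.8) and 14.3 to 55.8 CPM in proliferating libraries (median 30.6), a rise of 1.10 (SE 0.164, edgeR adjusted p = 0.000221). Zfp810 rose by 1.31 (edgeR adjusted p = 0.00562). The ranges of these last 3 overlapped.

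Zfp41 fell by 1.32 (SE 0.351, edgeR adjusted p = 0.0104), with 0.261 to 24.7 CPM in differentiating (median 6.56) and 6.25 to 39.6 CPM in proliferating libraries (median 17.3). Zfp94 fell by 1.54 (edgeR adjusted p = 0.00637), with medians of 3.59 CPM in differentiating and 6.05 CPM in proliferating libraries. Zfp946 fell by 2.13 (edgeR adjusted p = 0.0112), with medians of 0.942 and 1.87 CPM. Zfp213 fell by 1.76 (edgeR adjusted p = 0.00604), with medians of 1.36 CPM in differentiating and 5.77 CPM in proliferating libraries, and lost its call without proliferating cytosol monosome replicate 2 (edgeR adjusted p = 0.054). All 4 had overlapping ranges. Of 25 tested corepressor genes 1 rose and 9 fell, with a median of -0.49.

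The pair of most used sites of a gene could be compared for 142 genes of the group in the gradient libraries and for 135 in the puromycin libraries. Positive differences mean more reads at the distal site, which gives the longer 3' UTR where both sites lie in the last exon. Zfp87, on the minus strand of chromosome 13, had the lowest p of the group in all 3 comparisons. Its proximal site lies at position 67621974 and its distal site at 67616717 of build mm9, 5257 nt apart.

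The distal site of Zfp87 took 47.7% to 81.9% of reads in membrane libraries (median 64.3%) and 20.9% to 53.8% in cytosol libraries (median 43.8%), with between 117 and 463 reads per library at both sites. The log2 difference in distal over proximal use was 1.53 (SE 0.254, edgeR adjusted p = 0.00348). It was the only gene of the group called between fractions, with 1 higher and 0 lower of 142 by edgeR's quasi-likelihood test, against 0.922% and 0.132% of all 4553 genes. At an unadjusted p under 0.05, 16 were higher and 3 lower, against 8.96% and 2.61% of all genes.

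In differentiating cells the distal site of Zfp87 took 57.2% and 60.7% of reads on membrane polysomes, 58.4% and 47.7% on membrane monosomes, 41.9% and 34.5% on cytosol polysomes and 26.6% and 20.9% on cytosol monosomes. In proliferating cells it took 81.9% and 67.9%, 71.3% and 77.0%, 53.4% and 51.3%, and 53.8% and 45.6% in the same order. In each of the 4 pairs of groups both differentiating libraries were below both proliferating ones. The difference between states was -1.24 (SE 0.254, edgeR adjusted p = 0.016), and 0 genes of the group were higher and 1 lower by edgeR's quasi-likelihood test, against 1.1% and 0.439% of all genes. Both calls of Zfp87 held in all 16 fits that left out 1 library. For the state comparison the count of lower calls became 2 without differentiating cytosol monosome replicate 1 or differentiating membrane polysome replicate 1, and 3 without differentiating membrane monosome replicate 1.

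In the puromycin libraries the distal site of Zfp87 took 89.0%, 92.1%, 95.9% and 96.6% of reads in untreated, 0, 30 and 60 min membrane libraries and 75.9%, 88.3%, 87.2% and 92.7% in cytosol libraries. The slope was 0.77 (SE 0.172) and did not pass (edgeR adjusted p = 0.0614). Of 135 genes of the group 0 passed edgeR's quasi-likelihood test in either direction, against 0.0636% higher and 0.0424% lower of all 4719 genes, with 5 higher and 6 lower at an unadjusted p under 0.05 (2.31% and 3.39% of all genes). DESeq2 was not run on site pairs. Without the 0 min libraries 1 was called higher. Zfp689, among the 9 genes whose level rose, had a slope of 0.43 in distal use (edgeR adjusted p = 0.785), with 31.9%, 27.4%, 34.7% and 40.9% distal reads in membrane and 24.7%, 25.2%, 30.7% and 41.2% in cytosol libraries.

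**Figure D5:**
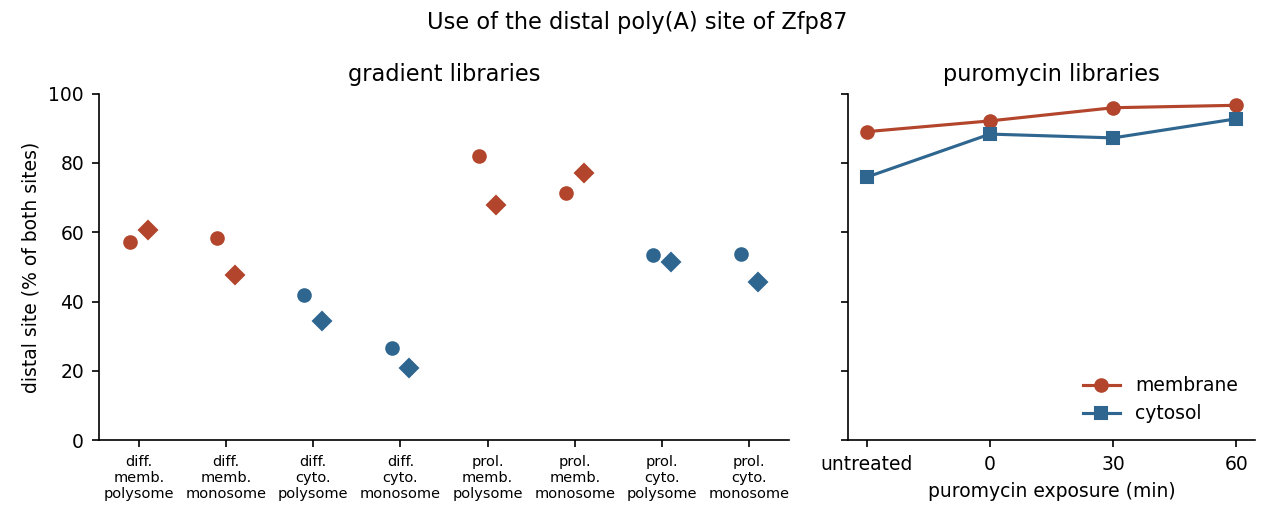
Percentage of Zfp87 reads at the distal of its 2 main poly(A) sites, 1 library per point, in the gradient libraries by state, fraction and gradient part (left) and by puromycin exposure (right). Membrane libraries lay between 47.7% and 81.9% and cytosol libraries between 20.9% and 53.8% in the gradient set.

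Other genes with the lowest p in these site comparisons did not pass. Zfp865 had 15.2% to 25.8% distal reads in membrane libraries (median 18.6%) and 21.5% to 40.6% in cytosol libraries (median 32.1%), a difference of -0.90 (edgeR adjusted p = 0.0669). Zfp947 had a difference of -2.30 between states (edgeR adjusted p = 0.0655). Zfp238, the same gene as Zbtb18 and known for its part in muscle differentiation, had a median of 50.0% distal reads in differentiating and 6.68% in proliferating libraries (difference 3.04, edgeR adjusted p = 0.121), from 2 to 44 reads per library.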

How the data were processed

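Poly(A) site counts of 26 3'READS+ libraries, an assay that sequences transcript ends next to the poly(A) tail, came from a table the authors deposited as raw read counts, 1 column per library, per the file headers. A second deposited table held RNA-seq read counts of 3 libraries in the alternative and constitutive parts of 3' UTRs. The submitters' processing notes list STAR 2.5.2, Bowtie2, cutadapt and the genome build mm9, with no role for each; how reads were counted is not given in the sources used here. The members and gene lists were chosen with earlier results of these data known.

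The 651 positions listed under more than 1 symbol (0.56% of reads) were left out, and sites were summed per symbol on either strand. Some symbols, such as Zfp689, list sites on both strands, so gene sums can include reads from the opposite strand. All 245 genes matched a RefSeq entry, 233 under the same symbol. The counts of all genes went through the filterByExpr filter and TMM scaling into edgeR 4.0.16 (robust quasi-likelihood test, R 4.3.3), with Benjamini-Hochberg adjustment over all genes tested and a threshold of 0.05. The 8 puromycin libraries were fitted with minutes (untreated as 0, in units of 30) and fraction, and the 16 gradient libraries with a mean per group. CPM were taken over all reads in genes, with no pseudocount. Site pairs were the 2 most used sites on a gene's main strand, at most 10000 nt apart, with a mean of at least 10 reads per library and at least 5% of them at the rarer site. Whole fractions, and exposed libraries against the mean of the unexposed ones, were compared as log2(CPM + 0.5). Named genes were the 10 largest rises and falls called after puromycin, the 4 in each direction in the other gene comparisons, the 4 lowest p in site comparisons, the 10 highest mean levels and 4 fixed names. The fits were tested on simulated counts. Alternatives were DESeq2 1.42.0, its size factors, no filter, shared positions kept, other exposure codings, fractions summed per exposure, each library or exposure left out, and a replicate block. A comparison of protein features was not made.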

Additional observations from a re-analysis of the deposited data

How the results depend on the processing

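Among single named genes, 1002 alternative values kept direction and side of the threshold, 148 lost the call, 15 gained one and 14 reversed; the cause was not tested. Reversed puromycin slopes were those of Zfp385a (0.014 exposed against unexposed, 0.03 without 0 min, 0.219 without 60 min, 0.015 in membrane alone), Zfp593 (0.008 in membrane alone), Zfp64 (-0.006 with DESeq2 or its size factors, -0.214 in cytosol alone), Zfp219 (-0.142 in cytosol alone), Zfp207 (-0.033 with DESeq2 or its size factors, -0.04 without 0 min, -0.053 in membrane alone) and Trim28 (0.004 without untreated). Counts below are of called genes of the group among those tested in each setting. The share of all genes called can change with the setting too. Where that share is not printed beside a count, here or in the next paragraph, the count describes the setting and not the group. For the puromycin slope the 9 higher became 5 with DESeq2 size factors, 23 with DESeq2, 0 as exposed against unexposed, 0 in cytosol alone, 17 in membrane alone and 0 without any 1 exposure. For the interaction the 0 higher became 1 with DESeq2, 49 (and 1 lower) as exposed against unexposed, and 0 to 30 without 1 exposure. Non-overlapping falls in the membrane fraction were 2 with TMM scaling and 3 with DESeq2 size factors, against 23.2% and 30.1% of all genes. These settings were chosen after seeing the data, as were the splits by state below. Membrane against cytosol in puromycin libraries gave 9 lower with DESeq2 size factors, 12 with DESeq2, and 0 higher and 0 lower without any 1 exposure. In gradient libraries it gave 40 higher without the low-count filter and 44 to 77 without 1 library. Cytosol polysomes against monosomes gave 26 to 40 higher and 25 to 39 lower without 1 library. Membrane polysomes against monosomes gave 1 higher without the filter, 58 lower with DESeq2, 0 higher and 5 lower in proliferating cells alone, 3 higher and 6 lower in differentiating cells alone, and 0 to 4 higher and 15 to 29 lower without 1 library. The differentiation comparison gave 20 lower with DESeq2 size factors and 16 to 32 without 1 library. Site pairs gave 1 lower between fractions at a mean of 30 reads, 0 to 1 higher with puromycin and 1 to 3 lower between states without 1 library or exposure.

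With the replicate number as a block, membrane polysomes against monosomes gave 7 higher and 60 lower, the differentiation comparison 53 lower, site pairs between fractions 3 higher and 1 lower, and site pairs between states 3 higher and 4 lower. The numbers were not treated as pairing the libraries: of 28 pairs of groups, 27 had a correlation of same-numbered deviations over 0.1, and the lowest was 0.0985. Exposed against unexposed was not run for the fraction difference of puromycin libraries. Shallow genes (16 to 136 reads per library at the median) and 1 library per exposure and fraction limit what could be detected.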

Other observations

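In the whole fractions, with 1 library each and so no replicate check, the 245 genes had a median membrane over cytosol difference of 0.12 on the log2(CPM + 0.5) scale, against -0.10 over 10054 genes, and 133 were above 0. Of them, 30 were higher by at least 2-fold and 15 lower, against 24.9% and 16.6% of all genes. The RNA-seq table listed 124 of these genes, and 32 had at least 20 reads in both parts of the 3' UTR in all 3 libraries. In those 32 the log2 ratio of the alternative over the constitutive part was higher in membrane than in cytosol for 26, with a median difference of 0.64, against 0.47 over 3110 genes. In the insoluble library it was higher than in cytosol for 26 as well, with a median of 0.64 against 0.44. Zfp106, whose protein binds RNA and whose loss in mice harms motor neurons and muscle, had a membrane minus cytosol difference of 1.56.

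Several members with a known role fall outside the rule for named genes and were chosen after their values were seen. Zfp516, which acts in mouse brown fat, had 131, 150, 255 and 298 CPM in membrane libraries of untreated, 0, 30 and 60 min cells and 46.3, 45.4, 26.5 and 41 CPM in cytosol libraries. In gradient libraries it was higher in the membrane than in the cytosol fraction by 1.51 (edgeR adjusted p = 2.35e-06). Zfp703, studied in human breast cancer, had 102, 72.6, 115 and 158 CPM in membrane and 65.4, 45.6, 49.0 and 74.9 CPM in cytosol libraries at the same times, and fell by 0.79 in differentiating cells (edgeR adjusted p = 0.00313). Zfp238 (Zbtb18) had a median of 2.77 CPM in differentiating and 1.81 CPM in proliferating libraries (difference 0.36, edgeR adjusted p = 0.493). Zfp106 had a median of 12.4 CPM in differentiating and 8.38 CPM in proliferating libraries (0.87, edgeR adjusted p = 0.0762). Zfp622, whose human counterpart takes part in ribosomal subunit maturation, rose by 0.69 in differentiating cells (edgeR adjusted p = 0.018), while Zfp259 (Zpr1) fell by 0.53 (edgeR adjusted p = 0.025). Zfp809, which silences retroviruses in mouse embryonic cells, had 2.24, 1.77, 4.46 and 4.07 CPM in membrane and 3.81, 1.93, 3.08 and 8.03 CPM in cytosol libraries of the puromycin experiment (slope 0.61, edgeR adjusted p = 0.39). Zfp57, which guards imprints, and Zfp423, known from adipocytes, had 48 and 39 reads in all and were not tested.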
